A study of Cynara cardunculus with 12 samples.

Results

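*Ccrd_010818* and *Ccrd_012564* are the cardoon genes that the study describes as cyclin-dependent kinase (CDK) inhibitors, the first of them as KRP7-like, and they are 2 of the 26505 genes in the count table. They were taken by their identifiers. The study itself drew them from its list of genes downregulated in the transgenic callus lines of these same samples, so a lower level in the lines than in WT is not independent evidence of that direction. It also tested *Ccrd_010818* by RT-qPCR, in a set of genes for which it reports a high correlation with the sequencing. *Ccrd_012564* is not among the genes that it names for that set. The only gene descriptions used here are those of genes that the study listed as changed in L1, where no other gene is described as a CDK inhibitor, and other members of the family were not analysed here.

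RNA was sequenced from friable callus of the "Spagnolo" genotype, a loose, undifferentiated tissue induced from leaves and grown in the dark on Gamborg B5 medium with the auxin 2,4-D and kinetin, in 3 replicates each of the lines L1, L18 and L24 and of untransformed WT callus, 12 samples in all. The lines overexpress the *Arabidopsis thaliana* repressor gene *AtMYB4* from the constitutive *CaMV35S* promoter and were kept on phosphinothricin and cefotaxime. L1 and L24 came from co-cultivation with the *Agrobacterium* strain AGL1 and L18 from the strain EHA105, so the strain and the line cannot be told apart. WT callus was of a later sub-culture than the lines and no empty-vector line was described, so in each comparison with WT the transgene, the culture age, transformation and selection cannot be told apart. The extractions were triplicates of 1 WT callus culture and of 3 independent lines. The study refers to biological replicates, but how the replicates of 1 line were kept apart is not stated for the sequenced samples, so the p-values measure the spread between samples within a line or culture, part of which may be technical. The table of cardoon genes holds no row labelled as the transgene, and callus identity was not checked against markers, since the identifiers carry no gene names.

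CDKs drive cells through the cell cycle when a cyclin is bound to them. Plant inhibitors of the KRP family (Kip-related proteins, named for their likeness to animal Kip inhibitors) bind the CDK-cyclin complex and hold the kinase back, and in *Arabidopsis* a strong excess of a KRP slows cell division. D-type cyclins, which in *Arabidopsis* respond to cytokinin and sucrose, act with CDKs at the entry into DNA replication, and a callus on auxin and cytokinin is a dividing tissue.

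The samples held 12505275 to 19509803 reads on genes. *Ccrd_010818* lies on the minus strand of scaffold 66 of the genome CcrdV1, from 56085 to 57435, with 4 exons of together 968 bases. *Ccrd_012564* lies on the minus strand of scaffold 540, from 39834 to 41452, also with 4 exons, of together 1208 bases. The exon lengths, in the order of transcription, were 413, 59, 213 and 283 bases in *Ccrd_010818* and 475, 95, 186 and 452 bases in *Ccrd_012564*, so the short second exon is a feature of both. Both genes were weakly expressed: no sample held more than 138 reads on *Ccrd_010818* or 64 on *Ccrd_012564*. Both passed the filter on low counts, *Ccrd_010818* with 9 and *Ccrd_012564* with 10 of 12 samples above 10.5 normalized counts, and 20024 genes were tested.

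*Ccrd_010818* was lower than in WT in every line, with the lowest level in L24, an intermediate one in L1 and the highest of the lines in L18. In read counts scaled for library size, L1 had 16.3, 20.9 and 16.3, L18 had 50.2, 69.5 and 36.8 and L24 had 6.10, 0 and 5.29 normalized counts, against 124, 107 and 147 in WT. Per length, the levels were 1.19, 1.54 and 1.05 FPKM in L1, 3.50, 4.57 and 2.66 in L18, and 0.416, 0 and 0.404 in L24, against 7.34, 7.19 and 10.3 in WT. The 4 groups did not overlap. Each replicate of L24 lay below each of L1, each of L1 below each of L18, and each of L18 below each of WT. Having every line below every WT replicate on normalized counts was shared by 9.76% of all genes tested. The share with this full order of the groups was not counted. The reads themselves numbered 18, 29 and 13 in L1, 56, 66 and 39 in L18 and 6, 0 and 5 in L24. The 11 reads of L24 had an exact Poisson 95% interval of 5.49 to 19.7, which covers counting error only, and the 0 reads of L24 replicate 2 allow up to 3 reads, or 3.33 normalized counts.

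The mean of *Ccrd_010818* was 17.9 ± 2.64 normalized counts in L1, 52.2 ± 16.4 in L18 and 3.80 ± 3.31 in L24, against 126 ± 20.5 in WT (mean ± SD, n = 3 each). Relative to the WT mean, L24 was lower 33.2-fold, L1 7.06-fold and L18 2.42-fold. The quasi-likelihood test of edgeR, adjusted by Benjamini-Hochberg over all genes tested, gave -4.98 ± 0.50 for L24 (log2 fold change ± standard error, adjusted p = 4.79e-06). L1 followed with -2.80 ± 0.40 (adjusted p = 9.31e-05), and L18 had the smallest difference, -1.27 ± 0.36 (adjusted p = 0.0191). The gene was thus called lower in all 3 lines, where 20.4% of all genes tested were called lower in L1, 12.8% in L18 and 20.7% in L24. Being called lower in every line was shared by 6.28% of the genes. Of the genes tested, 2.35% had a more negative log2 fold change in L1, 5.45% in L18 and 0.784% in L24. The call in L18 was lost without L18 replicate 1 (adjusted p = 0.0645), L18 replicate 3 (adjusted p = 0.0718) or WT replicate 3 (adjusted p = 0.0739), while the calls in L1 and L24 held without any single sample. With limma on log2(FPKM + 0.1) the call in L18 was also lost (adjusted p = 0.112).

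*Ccrd_012564* showed another order of the lines, with the lowest level in L18 and the highest of the lines in L24. L1 had 31, 26 and 7 reads on it, L18 had 12, 7 and 12 and L24 had 29, 12 and 36, against 34, 48 and 64 in WT. Per length, the levels were 1.64, 1.10 and 0.455 FPKM in L1, 0.600, 0.389 and 0.657 in L18, and 1.61, 0.794 and 2.33 in L24, against 1.98, 2.56 and 3.84 in WT. On deposited FPKM, L24 replicate 3 lay above WT replicate 1. On normalized counts each replicate of every line lay below every WT replicate, as it did for *Ccrd_010818*, and as it did for 9.76% of all genes tested. Replicates of L1 and of L24 spread widely, and L1 replicate 3 lay among the samples of L18.

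The mean of *Ccrd_012564* was 18.6 ± 9.68 normalized counts in L1, 9.82 ± 2.14 in L18 and 27.0 ± 12.6 in L24, against 52.5 ± 14.0 in WT (mean ± SD, n = 3 each). Relative to the WT mean, L18 was lower 5.35-fold, L1 2.83-fold and L24 1.95-fold. The same edgeR test gave -2.40 ± 0.47 for L18 (log2 fold change ± standard error, adjusted p = 0.00197). L1 had -1.47 ± 0.44 (adjusted p = 0.0160), and the gene was called lower in both. The value of L24 was -0.96 ± 0.43 (adjusted p = 0.0890), with a 95% interval, not adjusted for the number of genes, of -1.87 to -0.04, and the gene was not called. The study counted it among the genes downregulated in every line, so the missing call in L24 departs from the study. The reason was not tested. More negative log2 fold changes were found in 6.73% of the genes tested in L1, 1.82% in L18 and 12.0% in L24. The call in L18 held without any single sample. That in L1 was lost without L1 replicate 3 (adjusted p = 0.0530) or WT replicate 3 (adjusted p = 0.0670).

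**Figure D1:**
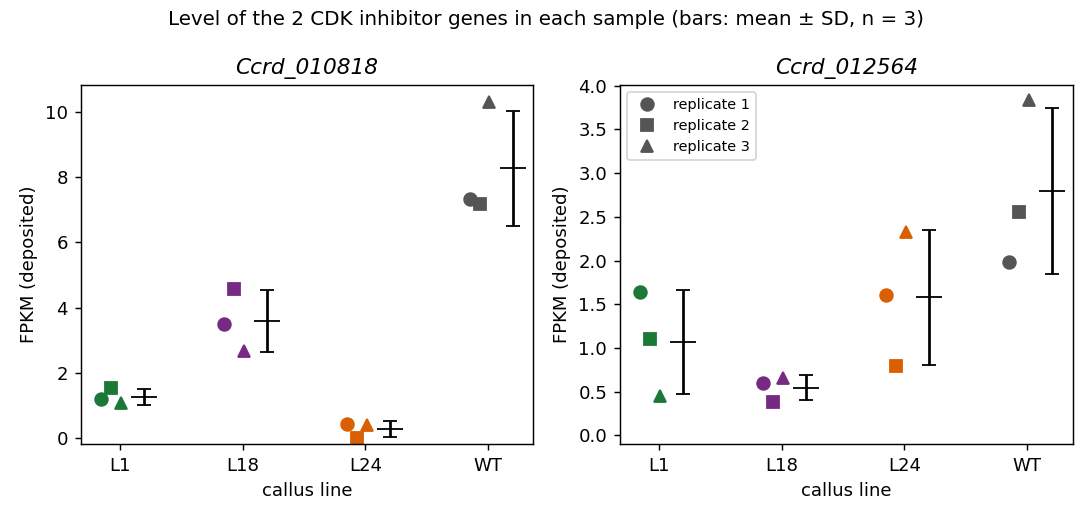
Deposited FPKM (y axis) of *Ccrd_010818* (left) and *Ccrd_012564* (right) in each replicate of L1, L18, L24 and WT (x axis), with the mean ± SD of 3 replicates as black bars. *Ccrd_010818* was lowest in L24, with 0 to 0.416 FPKM, and *Ccrd_012564* was lowest in L18, with 0.389 to 0.657 FPKM.

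Which line lowers which inhibitor more was tested between the lines, in the same fit. L24 and L18 differed at both genes, in opposite directions. *Ccrd_010818* averaged 3.80 normalized counts in L24 but 52.2 in L18, a 13.7-fold lower mean with a log2 fold change of -3.71 (standard error 0.51, adjusted p = 1.16e-04), where 16.4% of all genes tested were called lower in L24. *Ccrd_012564* averaged 27.0 normalized counts in L24 and 9.82 in L18, a 2.75-fold higher mean with a log2 fold change of 1.44 (standard error 0.48, adjusted p = 0.0364), where 14.3% were called higher in L24. For each gene the replicates of L24 and L18 did not overlap, and the share of all genes tested with such a separation was not counted. At *Ccrd_012564* the gap was narrow, with 13.3 normalized counts in L24 replicate 2 and 11.3 in L18 replicate 3. The difference at *Ccrd_012564* was close to the threshold and lost its call without L18 replicate 1 (adjusted p = 0.0780), L18 replicate 2 (adjusted p = 0.101), L18 replicate 3 (adjusted p = 0.0577), L24 replicate 1 (adjusted p = 0.0774) or L24 replicate 3 (adjusted p = 0.157).

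L1 took a middle place at both genes. *Ccrd_010818* averaged 17.9 normalized counts in L1 and 52.2 in L18, with a log2 fold change of -1.52 (standard error 0.40, adjusted p = 0.0100) where 16.8% of all genes tested were called lower in L1. Against the 3.80 of L24, it was higher in L1 by a log2 fold change of 2.19 (standard error 0.55, adjusted p = 0.0124), where 10.8% were called higher in L1, and with only these groups in the fit its adjusted p was 0.0531. *Ccrd_012564* was not called between L1 and the other lines. Its log2 fold change was 0.93 for L1 over L18, with an unadjusted 95% interval of -0.12 to 1.99 (adjusted p = 0.167), and -0.51 for L1 over L24, with an interval of -1.47 to 0.46 (adjusted p = 0.478). The order of the levels from lowest to highest was therefore L24, L1, L18 and WT for *Ccrd_010818*, with a called difference at each step. For *Ccrd_012564* it was L18, L1, L24 and WT, in which no neighbouring groups differed by a call, while L18 differed from L24 and from WT, and L1 from WT.

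**Figure D2:**
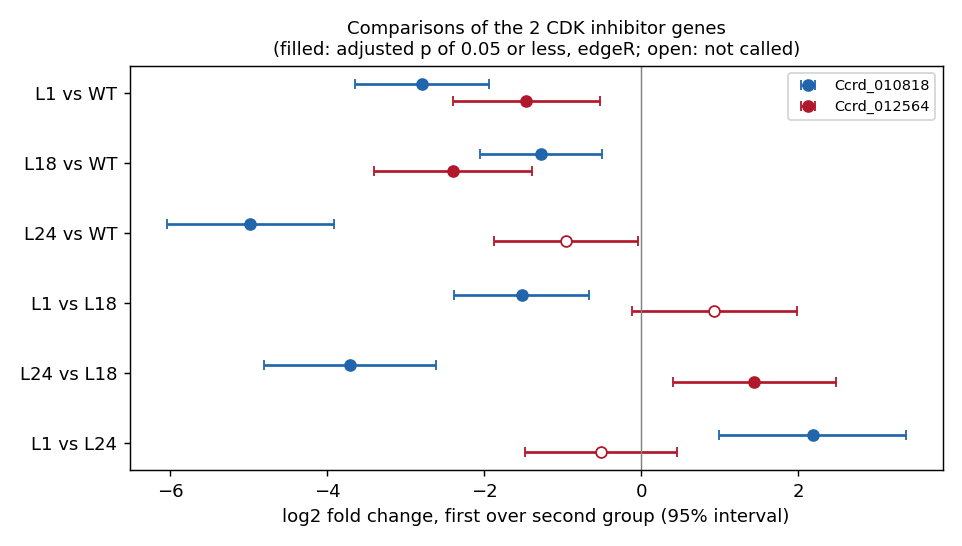
Log2 fold change of the first over the second group (x axis) with its 95% interval, not adjusted for the number of genes, for *Ccrd_010818* (blue) and *Ccrd_012564* (red) in the 6 comparisons (y axis); filled points had an adjusted p of 0.05 or less. In L24 against L18 the points lie on opposite sides of 0, at -3.71 and 1.44.

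The balance of the genes was measured within each sample, where library scaling has no part. *Ccrd_010818* made up 42.0%, 58.2% and 69.9% of the summed FPKM of both genes in L1, 85.3%, 92.2% and 80.2% in L18, and 20.5%, 0% and 14.8% in L24, against 78.8%, 73.7% and 72.9% in WT. L24 was the line in which *Ccrd_012564* was the more abundant inhibitor in every replicate, and L18 the line in which *Ccrd_010818* held a larger share than in any WT sample. The mean share in L1 was 56.7% ± 14.0, in L18 85.9% ± 5.99 and in L24 11.8% ± 10.6, against 75.1% ± 3.16 in WT (SD, n = 3 each). In WT the mean FPKM of *Ccrd_010818* was 2.97-fold that of *Ccrd_012564*.

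As a log2 ratio of read counts with 0.5 added to each, *Ccrd_010818* over *Ccrd_012564*, the balance averaged 0.08 ± 0.81 in L1, 2.33 ± 0.76 in L18 and -3.19 ± 1.29 in L24, against 1.27 ± 0.25 in WT (SD, n = 3 each). Differences between the groups held 89.7% of the sum of squares of this ratio, and none of the 15400 divisions into 4 groups of 3 but the real one gave as large a share (exact permutation test, p = 6.49e-05, the smallest the design allows). The ratio was formed with the levels of both genes already known. Between single groups, the differences were -1.20 for L1 minus WT, 1.05 for L18 minus WT and -4.46 for L24 minus WT. Between lines they were -2.25 for L1 minus L18, -5.51 for L24 minus L18 and 3.26 for L1 minus L24. Those with L24 depend on the count added, since L24 replicate 2 had 0 reads on *Ccrd_010818*. With 1 count added, they were -4.07 for L24 minus WT, -5.08 for L24 minus L18 and 2.88 for L1 minus L24. No pair of groups overlapped, and with 3 samples against 3 each exact two-sided permutation test gave p = 0.10, before and after Benjamini-Hochberg adjustment over the 6 pairs, the smallest that it can give.

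The summed FPKM of both inhibitors was 2.83, 2.64 and 1.51 in L1, 4.10, 4.96 and 3.32 in L18, and 2.03, 0.794 and 2.74 in L24, against 9.32, 9.75 and 14.2 in WT. Its mean in L1 was 2.33 ± 0.71, in L18 4.13 ± 0.82 and in L24 1.85 ± 0.98, against 11.1 ± 2.68 in WT (SD, n = 3 each). Since all reads come from bulk callus, fewer cells with the transcript and less transcript per cell cannot be told apart.

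**Figure D3:**
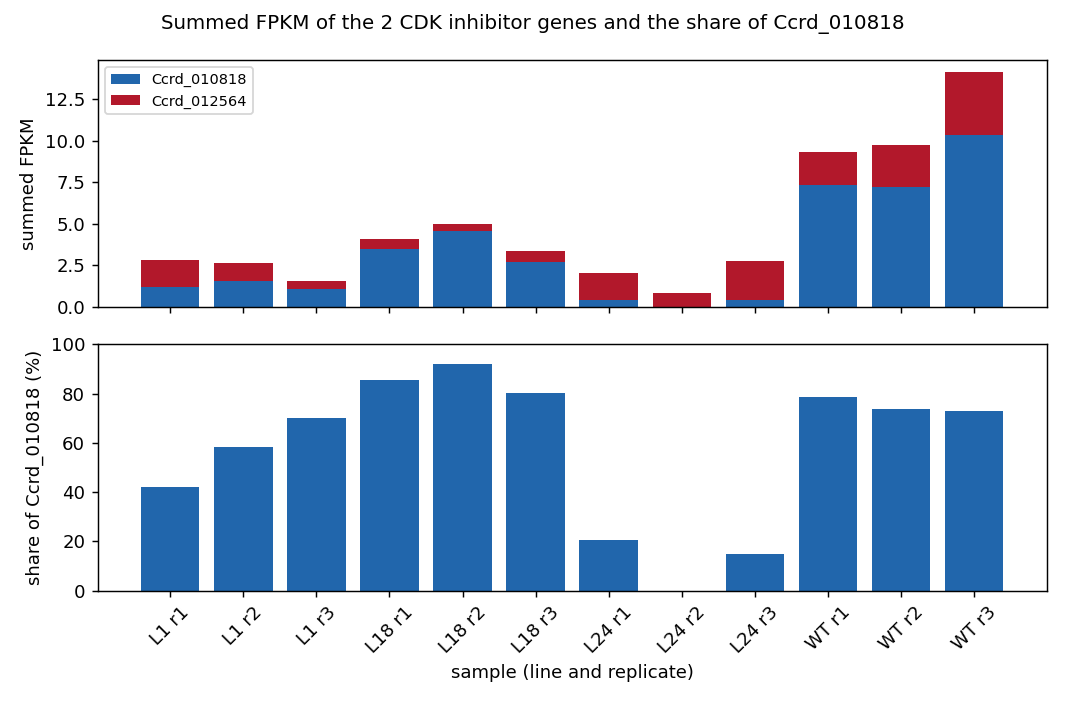
Top, summed FPKM (y axis) of *Ccrd_010818* (blue) and *Ccrd_012564* (red) in each sample (x axis); bottom, the share of *Ccrd_010818* in that sum in percent. The share was 80.2% to 92.2% in L18 and 0% to 20.5% in L24, against 72.9% to 78.8% in WT.

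Among all 26505 genes, the mean FPKM of *Ccrd_010818* stood above that of 34.1% of the genes in L1, 45.4% in L18 and 25.7% in L24, against 60.3% in WT. For *Ccrd_012564* the same percentiles were 32.8% in L1, 29.6% in L18 and 35.6% in L24, against 43.8% in WT. The spread between replicates that edgeR estimated, as a biological coefficient of variation, was 23.2% for *Ccrd_010818* and 32.2% for *Ccrd_012564*, close to the 26.3% and 30.2% fitted for genes of their levels. At the depth reached, counting error alone would give a coefficient of variation of 52.2% for *Ccrd_010818* in L24 and of 31.1% for *Ccrd_012564* in L18, against 9.30% and 14.3% for the same genes in WT.

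The genes on either side of each inhibitor were examined on its scaffold. Over all genes tested, 20.4% were called lower and 19.3% higher in L1, 12.8% and 12.4% in L18, and 20.7% and 19.3% in L24, and the counts of neighbours stand beside these shares with nothing read from them. Among the 9 nearest tested genes of *Ccrd_010818* on scaffold 66, 1 was called lower and 3 higher in L1, 1 lower and 1 higher in L18, and 1 lower and 4 higher in L24 against WT. None of the 9 had a log2 fold change as low as that of *Ccrd_010818* in any line. Its nearest tested gene downstream, *Ccrd_010817*, whose start lies 23136 bases away, was higher in L1 with a log2 fold change of 2.00 (adjusted p = 3.92e-05) and in L24 with 1.45 (adjusted p = 4.88e-04). It had -0.08 in L18 (adjusted p = 0.846).

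Over a window of 100 expressed genes in the order of their identifiers around *Ccrd_010818*, the median log2 CPM relative to the WT mean was 0.49 in L24 replicate 1, -0.15 in L24 replicate 2 and 0.24 in L24 replicate 3. The samples of WT stood between -0.03 and 0.01. L24 replicate 2, with no read on *Ccrd_010818*, was thus also the lowest replicate of L24 over its neighbours, and the part of this in the value of the gene was not tested. Centred on these neighbours, *Ccrd_010818* had log2 fold changes against WT of -5.17 for L24, -2.86 for L1 and -1.21 for L18.

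Among the 7 nearest tested genes of *Ccrd_012564* on scaffold 540, 2 were called lower and 1 higher in L1, 1 lower and 1 higher in L18, and 1 lower and 2 higher in L24 against WT. The gene called lower in L18, *Ccrd_012563*, starts 13468 bases from it and is the nearest tested gene downstream. It had 0, 1 and 1 reads in L18, against 6, 6 and 16 in WT (edgeR, adjusted p = 0.00405). The WT mean, raised by the replicate with 16 reads, stood 3.50-fold above a floor of 3 counts per library in L18. That ratio allows for no error in the WT mean. In L1 the gene had 6, 10 and 7 reads and in L24 14, 9 and 8. *Ccrd_012563* was singled out after its values were seen. Over the 100 expressed genes around *Ccrd_012564*, the median log2 fold change against WT was 0.26 for L18, 0.05 for L24 and -0.06 for L1. Centred on these neighbours, that of *Ccrd_012564* was -2.66 for L18, -1.41 for L1 and -1.01 for L24.

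**Figure D4:**
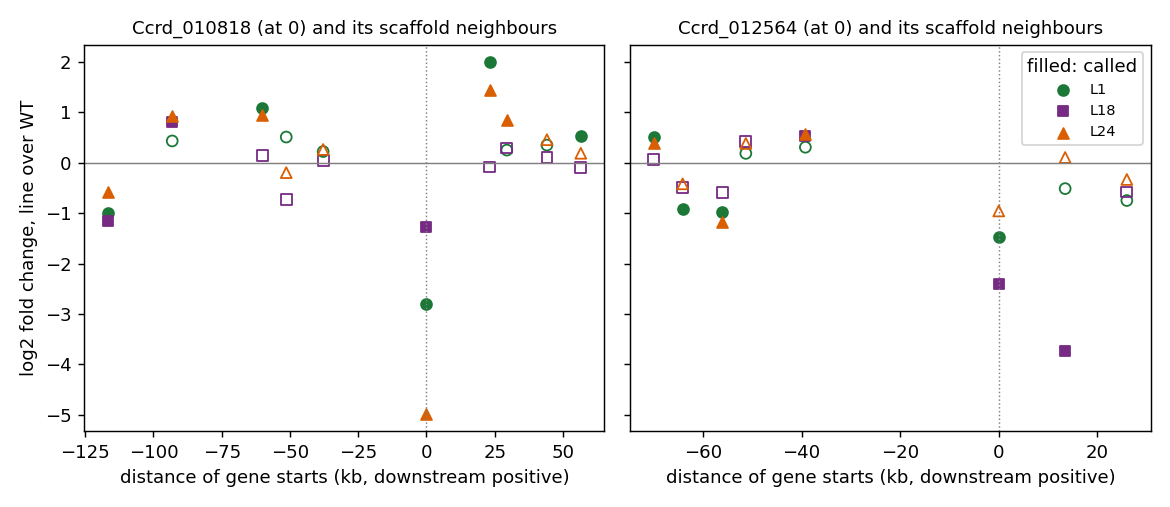
Log2 fold change of each line over WT (y axis) for *Ccrd_010818* (left) and *Ccrd_012564* (right), both at distance 0, and for up to 5 tested genes on either side on the scaffold, by the distance of their starts in kb (x axis); filled points had an adjusted p of 0.05 or less. The fitted point of *Ccrd_012563* in L18, right of *Ccrd_012564*, rests on 0, 1 and 1 reads and is no bound.

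For each inhibitor the 5 tested genes with the most similar course over the 12 samples were found by Pearson's r of log2(CPM + 1), which describes these samples and is dominated by the 4 groups. The genes most like *Ccrd_010818* had r from 0.977 to 0.982. The closest was *Ccrd_019092*, described as S-adenosylmethionine decarboxylase, an enzyme of polyamine synthesis, and its mean in L1 was 23.1 FPKM, in L18 39.3 and in L24 16.6, against 53.9 in WT. *Ccrd_020856*, described as an S5A_REDUCTASE domain protein, had 53.4 FPKM in L1, 254 in L18 and 20.9 in L24, against 512 in WT. *Ccrd_013988*, described as the alpha subunit of the pyrophosphate-dependent phosphofructokinase of glycolysis, had 21.6 FPKM in L1, 31.1 in L18 and 16.4 in L24, against 47.6 in WT. *Ccrd_019247* and *Ccrd_005925*, with no description in the sources used here, completed the 5. All 5 followed the order L24, L1, L18 and WT in their mean FPKM, which the choice by correlation largely fixed. In L18 against WT, *Ccrd_019247* and *Ccrd_005925* were not called by edgeR's quasi-likelihood test (adjusted p = 0.0605 and 0.0679).

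The genes most like *Ccrd_012564* had r from 0.914 to 0.954, and 9 genes in all reached 0.9, against 440 for *Ccrd_010818*. The estimated spread between replicates was wider for *Ccrd_012564*, 32.2% against 23.2%, and its groups lay closer together. The part of this in the contrast was not tested. *Ccrd_019107*, a MADS-box gene and so of a family of transcription factors, was the only 1 of the 5 with a description. Its mean in L18 was 0.170 FPKM, and L1 had 6.84 and L24 6.98, against 39.6 in WT. The replicates spread widely, from 0.902 to 10.8 FPKM in L1 and from 1.84 to 9.59 in L24. *Ccrd_008495* had 32.2 FPKM in L1, 16.8 in L18 and 34.9 in L24, against 63.8 in WT, and *Ccrd_000687* had 4.22 in L1, 2.76 in L18 and 5.82 in L24, against 8.00 in WT. *Ccrd_020518* and *Ccrd_009362* completed the 5. All 5 had their lowest mean in L18 and their highest in WT, which the choice by correlation largely fixed. *Ccrd_009362* was nearly level in L18 and L1, with 2.79 and 2.80 FPKM.

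Cyclins are the partners through which CDKs are activated, and genes described with the word cyclin changed in both directions. The 3 genes that the study lists under regulation of CDK activity, 2 described as cyclins and 1 as cyclin-like, were called higher than WT in every line, where 19.3% of all genes tested were called higher in L1, 12.4% in L18 and 19.3% in L24. The study chose them among its upregulated genes of these samples, so their direction is not independent evidence. *Ccrd_021208* had 23.6, 28.6 and 28.0 FPKM in L1, 17.7, 12.5 and 12.6 in L18, and 22.0, 16.6 and 24.8 in L24, against 3.87, 3.72 and 3.67 in WT. L1 stood above WT by a log2 fold change of 2.73 (adjusted p = 6.13e-07), L24 by 2.33 (adjusted p = 2.57e-06) and L18 by 1.84 (adjusted p = 3.44e-05). It was also higher in L1 than in L18 by 0.89 (adjusted p = 0.00335), where 16.2% of all genes tested were called higher in L1. *Ccrd_011549* had 9.62 ± 2.01 FPKM in L1, 15.4 ± 4.12 in L18 and 9.66 ± 2.55 in L24, against 2.73 ± 0.44 in WT (SD, n = 3 each), and stood above WT by 2.41 in L18, 1.71 in L1 and 1.66 in L24 on the log2 scale. Between L24 and L18, where 14.3% of all genes tested were called higher and 16.4% lower in L24, none of the 3 was called higher and 1 was called lower, the cyclin-like *Ccrd_026870*, with a log2 fold change of -1.18 (adjusted p = 0.0282).

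In the 7 genes described with the word cyclin or anaphase in the study's list of genes changed in L1, these 3 were called higher in every line. Of the other 4, 3 were called lower in L1, 2 in L18 and 3 in L24, beside 20.4%, 12.8% and 20.7% of all genes tested. Being drawn from genes listed as changed in L1, the members had their calls in L1 largely fixed by that choice. *Ccrd_009773*, with a cyclin C-terminal domain, was lower in L1 by a log2 fold change of -1.31 (adjusted p = 2.28e-05), in L24 by -0.73 (adjusted p = 0.00195) and in L18 by -0.60 (adjusted p = 0.0114). *Ccrd_014801* and *Ccrd_002999* are named after their values were seen. The first is described as "F-box domain, cyclin-like protein", and whether it is a cyclin was not examined. The second is a subunit of the anaphase-promoting complex, which marks mitotic cyclins for degradation. *Ccrd_014801* was called lower in all 3 lines, with -3.12 for L24, -2.58 for L1 and -2.43 for L18 on the log2 scale. *Ccrd_002999* had -2.52 in L1 (adjusted p = 0.00151), 0.12 in L18 (adjusted p = 0.865) and -2.63 in L24 (adjusted p = 0.00138), and for L24 over L18 it had -2.75 (adjusted p = 0.00142), the same direction between these lines as *Ccrd_010818*.

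**Figure D5:**
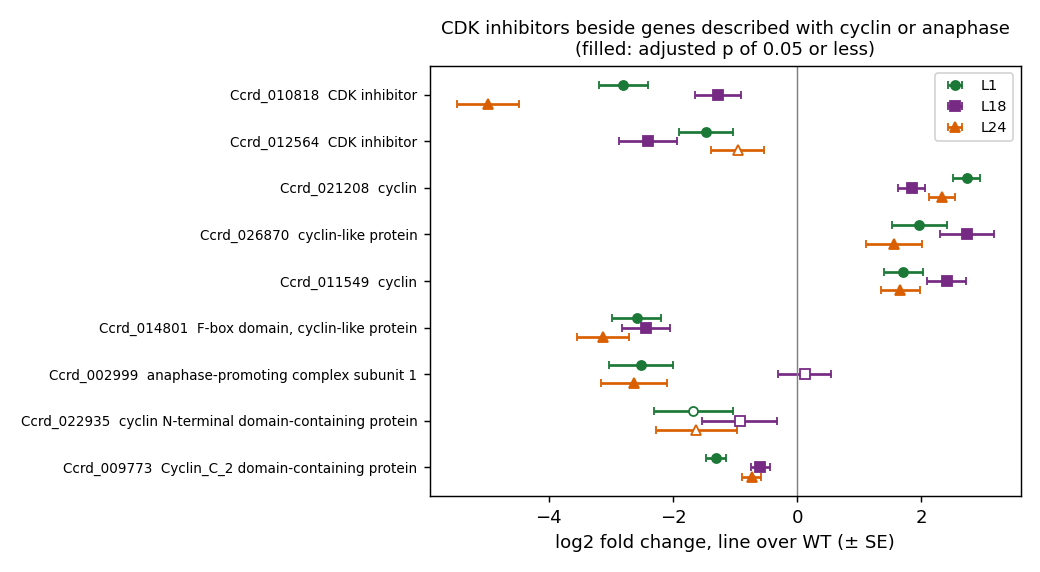
Log2 fold change of each line over WT with its standard error (x axis) for the 2 inhibitors and the 7 genes described with cyclin or anaphase (y axis), in L1, L18 and L24; filled points had an adjusted p of 0.05 or less. *Ccrd_021208*, *Ccrd_011549* and *Ccrd_026870* lie between 1.56 and 2.74 in all lines, *Ccrd_014801* between -3.12 and -2.43 and the inhibitors between -4.98 and -0.96.

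The other lists came from terms of the study's upregulated genes of these samples, so their direction against WT is not independent evidence. The choice asked for a higher level in every line, so it may bear on the differences between lines too, which was not tested. Against WT, both genes of the mitotic cell cycle were called higher in L24 and 1 of them in L1 and in L18. Positive regulation of cell division had both genes higher in L1 and in L24 and 1 in L18. Mitotic chromosome condensation had its 3 genes higher in every line, and microtubule-based movement had 20 of 20 higher in L24, 17 in L18 and 16 in L1, beside 19.3% of all genes tested in L24, 12.4% in L18 and 19.3% in L1. In L24 against L18, 2 of 2 genes of the mitotic cell cycle, 0 of 2 of positive regulation of cell division, 1 of 3 of mitotic chromosome condensation and 7 of 20 of microtubule-based movement were called higher in L24, and none of them lower, beside 14.3% higher and 16.4% lower over all genes tested. The median log2 fold changes of these lists were 1.01, 0.16, 0.63 and 0.57, beside a median of 0.01 over all genes tested. In L1 against L24, 2 of 2, 0 of 2, 1 of 3 and 6 of 20 genes of the same lists were called lower in L1, where 9.73% of all genes tested were called lower. Their medians were -1.0, -0.01, -0.70 and -0.71, beside 0.01 over all genes. In L1 against L18 none of these 27 genes was called, beside 16.2% called higher and 16.8% lower over all genes tested. *Ccrd_006023*, described as a serine/threonine protein kinase, had 6.50 to 12.8 FPKM in L1, 7.83 to 10.8 in L18 and 16.1 to 23.2 in L24, against 3.36 to 3.92 in WT. *Ccrd_017348* had 10.5, 10.8 and 4.36 FPKM in L1, 7.90, 4.53 and 12.8 in L18, and 12.7, 21.6 and 24.6 in L24, against 3.93, 4.59 and 4.31 in WT. L1 replicate 3 was the lowest L1 sample at both of these genes and at both inhibitors.

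The remaining lists are shown by the 2 genes with the largest mean CPM, which is not scaled for length. *Ccrd_000826* of positive regulation of cell division had in L1 26.7 ± 8.93 FPKM, in L18 23.2 ± 8.27 and in L24 28.7 ± 10.1, against 14.2 ± 1.82 in WT, and *Ccrd_013806* had 10.6 ± 2.84, 9.72 ± 1.35 and 10.8 ± 2.10 in the same lines, against 6.03 ± 1.28 in WT (SD, n = 3 each). *Ccrd_013012* of mitotic chromosome condensation had 10.7 ± 2.09 FPKM in L1, 13.2 ± 1.84 in L18 and 15.9 ± 2.88 in L24, against 6.64 ± 2.33 in WT, and *Ccrd_010917* had 5.39 ± 2.17, 5.70 ± 1.21 and 9.30 ± 2.55, against 2.93 ± 0.71 in WT. For microtubule-based movement, *Ccrd_004967* had 33.2 ± 9.80 FPKM in L1, 32.7 ± 7.05 in L18 and 39.0 ± 8.35 in L24, against 21.7 ± 2.62 in WT, and *Ccrd_022571* had 17.2 ± 6.80, 20.4 ± 10.6 and 29.2 ± 7.91, against 8.43 ± 1.39 in WT.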

How the data were processed

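Per the study's methods, the authors trimmed the reads with BBDuk, aligned them to CcrdV1 with STAR, and deposited unscaled read counts per gene and FPKM; the counting tool is not given in the sources used here. FPKM recomputed from counts, exon length and library total matched all 251286 deposited non-zero FPKM values within a ratio tolerance of 1e-06. Counts were tested as deposited. The filter left out genes that stayed at or below 10.5 normalized counts in all samples, where the replicates' Jaccard index peaked (0.961; the idea of HTSFilter, coded again here). L1, L18 and L24 were compared with WT and with each other in 1 fit to all samples (TMM, edgeR's quasi-likelihood test, Benjamini-Hochberg adjustment over 20024 genes, called at 0.05). Standard errors were derived from the F statistic of each contrast. TMM factors ran from 0.851 to 1.10.

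The alternatives were 2 other filters, 2 other normalizations, DESeq2's Wald test, edgeR's exact and likelihood ratio tests, only the groups compared, limma on log2 FPKM in 3 forms, blocking on the replicate number, centring on neighbouring genes, and leaving out each sample. Neighbours were 50 genes on either side, by identifier, with a mean log2 CPM above 3. Named genes were both inhibitors, the 5 genes most correlated with each, and the 2 genes of each cell-cycle list with the largest mean CPM by the rule, taken from the study's tables. The members and lists were chosen with earlier results of these data known. The scripts were tested on simulated data. No identifier matched the RefSeq table given, so no sequence is shown. R 4.3.3, edgeR 4.0.16, limma 3.58.1, DESeq2 1.42.0, Python's pandas 2.3.3 and matplotlib 3.10.9 were used.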

Additional observations from a re-analysis of the deposited data

Results flagged for a closer look

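The lines differed from each other at the inhibitors by the test of the difference itself (edgeR's quasi-likelihood test, Benjamini-Hochberg adjustment). For *Ccrd_010818* the log2 fold change was -1.52 for L1 over L18, -3.71 for L24 over L18 and 2.19 for L1 over L24. All 3 replicates of the lower line lay below all of the other each time, and the share of all genes tested separated in this way was not counted. For *Ccrd_012564* the log2 fold change was 1.44 for L24 over L18, in the opposite direction, a call that was lost in 9 of 25 alternatives. L1 was not called against either of the other lines at *Ccrd_012564*.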

How the results depend on the processing

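Each of the 12 comparisons of a gene was recomputed under 25 alternatives. Of these 300 values, 283 kept direction and side of the threshold, 17 lost the call and none reversed. Those of *Ccrd_010818* in L1 and L24 against WT and in L24 against L18, and of *Ccrd_012564* in L18 against WT, kept their calls in all 25. With only the groups compared in the fit, the log2 fold change of *Ccrd_012564* in L24 over L18 was 1.44 and that of *Ccrd_010818* in L1 over L24 was 2.17, neither called. With limma on log2(FPKM + 1), with or without the FPKM filter, *Ccrd_012564* in L24 over L18 had 0.69, and on log2(FPKM + 0.1) it had 1.28, while *Ccrd_010818* had -1.20 in L18 over WT and -1.42 in L1 over L18, none called; the cause was not tested. On log2(FPKM + 1), *Ccrd_010818* had -2.87 in L24 over WT and *Ccrd_012564* had -1.27 in L18 over WT, both still called. The added 1 by its form shrinks log2 changes of weakly expressed genes. Leaving out single samples, the log2 fold change ran from -1.53 to -1.08 for *Ccrd_010818* in L18 over WT, from -1.87 to -1.17 for *Ccrd_012564* in L1 over WT and from 1.11 to 1.76 for *Ccrd_012564* in L24 over L18. The share of the sum of squares of the log2 ratio between groups ran from 88.4% to 92.5%, with an exact permutation p of at most 8.44e-04.

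Equal replicate numbers were not taken as a pairing of samples. Of 18 such pairs, 6 deviated from their groups with a correlation over 0.1, and the range was -0.344 to 0.457. Pairs with different numbers were not compared with them, so a pairing was not tested. With the replicate number as a block, no call changed, *Ccrd_012564* in L24 over L18 had 1.42 (adjusted p = 0.0485), and 7636, 4737 and 7687 genes were called in L1, L18 and L24 against WT, against 7952, 5056 and 8000 without it. Depth limits the inhibitors most in L24 and L18, with 11 reads in all on *Ccrd_010818* in L24 and 31 on *Ccrd_012564* in L18.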
